A study of Cercocebus atys with 16 samples.

Results

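The genes described here are 47 factors of ribosome biogenesis and RNA polymerase I, chosen by name and sorted by step into RNA polymerase I, small nucleolar ribonucleoproteins (snoRNPs), small subunit processing, large subunit processing, and nucleolar chaperones and regulators. A gene was included where the gene name column of the array gave its symbol and a probe was well above background in at least 2 animals, which held for 33 of the 47, out of 8622 named genes tested. They were assayed in double-negative T cells, which have CD3 but neither CD4 nor CD8 on their surface, taken from the blood of 4 sooty mangabeys (Cercocebus atys) that were all infected with SIV, the simian immunodeficiency virus. The cells of each animal were either stimulated for 4 hours through the T cell receptor and its costimulatory receptor, with anti-CD3 and anti-CD28 labelled as used at 3 and 1 mg/ml, or left unstimulated. CD4 status was labelled low in FBR and FTV and normal in FNV and FKN. Each animal had 2 ratio arrays, which compared its stimulated and unstimulated RNA in both dye orientations, and 2 self-self arrays, 16 arrays in all, on a design made for the rhesus macaque, so a probe may pair less well with mangabey RNA where the species differ.

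RNA polymerase I transcribes the ribosomal DNA in the nucleolus into one long precursor. snoRNPs guide methylation and pseudouridylation of that precursor, and large sets of assembly factors fold it, cut it and load ribosomal proteins onto it, along separate routes for the small and the large subunit. Resting T cells hold relatively few ribosomes, and making more of them is a known early part of T cell activation.

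The share of the 43803 non-control spots that exceeded background clearly was 57.0% to 65.0% per channel on the 12 arrays of FBR, FTV and FKN. On the 4 FNV arrays, scanned as an earlier batch, it was 33.3% to 64.8%. No spot was saturated. The label of 1 dye-swapped FNV array contradicts itself about which RNA was in which channel. The 2 dye orientations correlated across all features at 0.91 to 0.93 within an animal, and leaving that array out kept the count of members that rose at 31. The number of animals limited the precision. Ratios were centred within each array, so a shift common to all transcripts was not measured, and in these bulk samples fewer cells of a type and less RNA per cell cannot be told apart. The labels give the bead-isolated cells as highly pure double-negative T cells. All 5 T cell markers were measured, and CD3D, CD3E, CD3G and CD2 were well above background in all 16 channels of each condition. CD4 was also well above background in all 16 channels of each condition, at 9.14 to 9.84 (log2 intensity) in stimulated and 9.19 to 9.53 in unstimulated cells, and the genes for CD8 were not analysed here.

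Most of these genes were read by a single 60-base probe, and 12 of the 33 by several. The sequences below, as the array files give them (lower case, written 5′ to 3′, with positions on rheMac2), are shown because independent probes of the same gene carry the comparison between probes. The first POLR1C probe lies at chr4:43422548-43422745 on the plus strand and the second upstream of it at chr4:43421937-43422193, and each interval is longer than the probe, so it spans an intron. Both DDX21 probes printed here lie on the minus strand, at chr9:68039156-68039215 and chr9:68042991-68043050. Neither is the tested DDX21 probe, and their mean log2 ratios were 1.97 and 2.13. The files place 1 WDR12 probe at chr6:145534391-145534450 and the other at chr12:66755288-66755347, both on the minus strand, and describe both as WDR12 transcripts.
POLR1C probe 1: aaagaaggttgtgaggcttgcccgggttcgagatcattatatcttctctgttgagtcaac
POLR1C probe 2: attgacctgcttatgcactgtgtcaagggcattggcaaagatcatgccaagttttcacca
DDX21 probe 1: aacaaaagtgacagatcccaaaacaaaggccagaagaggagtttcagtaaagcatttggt
DDX21 probe 2: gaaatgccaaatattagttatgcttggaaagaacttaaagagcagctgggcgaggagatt
WDR12 probe on chromosome 6: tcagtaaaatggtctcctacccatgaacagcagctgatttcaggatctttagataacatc
WDR12 probe on chromosome 12: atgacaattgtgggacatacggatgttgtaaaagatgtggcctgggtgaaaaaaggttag

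Stimulation for 4 hours raised 31 of the 33 measured genes and lowered 0, with 2 that did not pass the test (limma, moderated test of the 4 per-animal log2 ratios against 0, Benjamini-Hochberg adjusted p under 0.05 over 23081 features). The same test called 19.1% of all features higher and 21% lower. The median log2 ratio of stimulated over unstimulated was 1.27 over the 33 genes and -0.01 over all tested features. All 31 were higher in 4 of 4 animals, and 30 of them on all 8 ratio arrays, PES1 being the exception at 7. The call rests on these same ratios, so the agreement in sign is not separate evidence. In 20 the rise was at least 2-fold, against 3.55% of all features. In 27 of the 33 every stimulated level lay above every unstimulated level, which held for 7.4% of all features. The groups overlapped for POLR1D and for 5 genes that rose within every animal, LYAR, NOP2, PES1, POLR1A and PPAN.

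**Figure D1:**
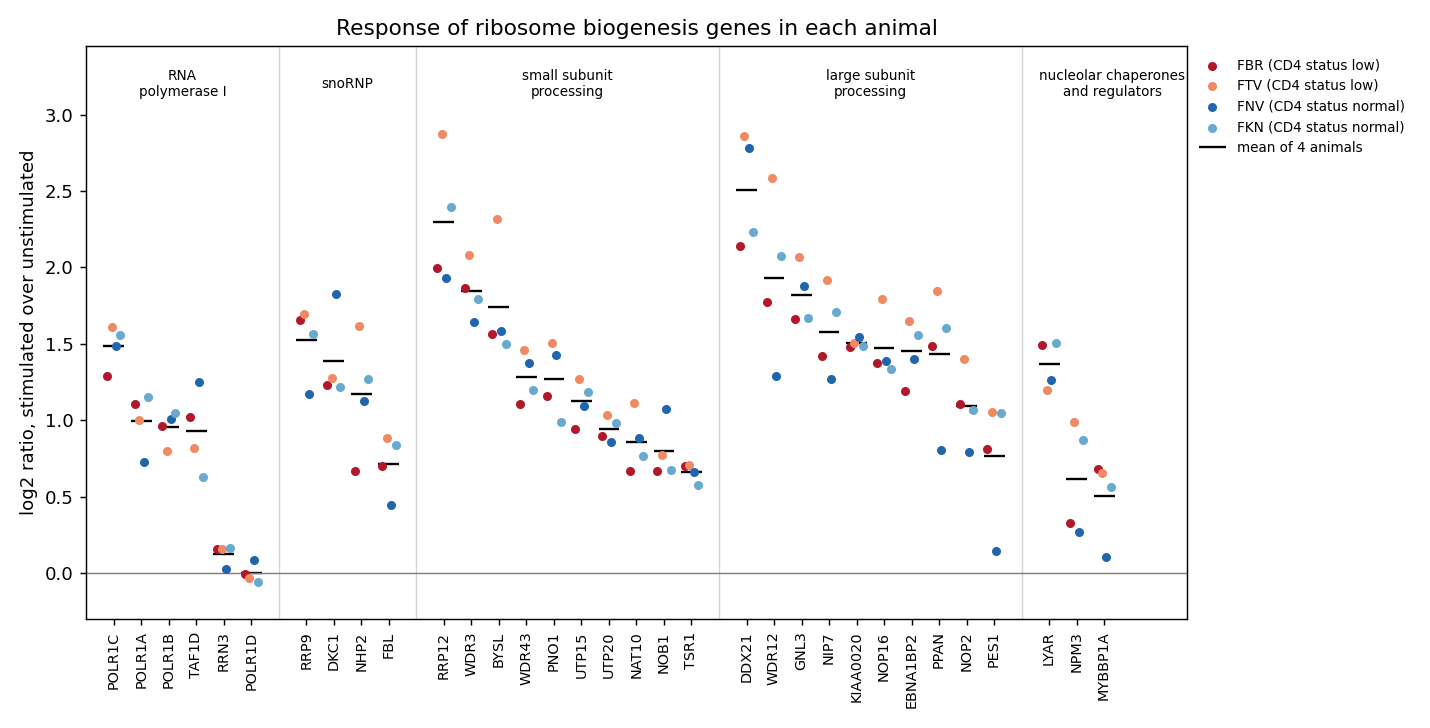
Log2 ratio of stimulated over unstimulated cells for each of the 33 genes, ordered by step and by size (points: 1 animal each, the mean of its 2 dye-swapped arrays; bars: mean of 4 animals). All animals lie above 0 for the 31 genes that rose, and POLR1D lies at 0.

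The RNA polymerase I genes moved unevenly. Of 6 measured, 4 rose and 2 did not pass, with a median log2 ratio of 0.94. POLR1C, a subunit that RNA polymerases I and III share, had levels (log2 intensity) of 11.90 in FBR, 11.91 in FTV, 11.78 in FNV and 12.37 in FKN after stimulation, against 10.70, 10.30, 10.30 and 10.77 in the unstimulated cells of the same animals. Every stimulated level lay above every unstimulated one, and the log2 ratio was 1.49 ± 0.14 (SD, n = 4, limma adjusted p = 0.000558).

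POLR1D, the partner with which POLR1C forms a heterodimer in both polymerases, showed no such shift. Its levels were 12.50 in FBR, 12.41 in FTV, 12.79 in FNV and 12.62 in FKN after stimulation, against 12.57, 12.42, 12.67 and 12.67 without it. The groups overlapped, and the log2 ratio was 0.00 in FBR, -0.03 in FTV, 0.08 in FNV and -0.06 in FKN (limma adjusted p = 0.975). As read by the tested probes, the log2 ratio of POLR1C minus that of POLR1D was 1.29 in FBR, 1.64 in FTV, 1.40 in FNV and 1.62 in FKN. POLR1D rests on 2 probes that are not independent: over 58 aligned bases they differ at 5. They are placed at chr4:82333613-82333672 and chr4:82333615-82333674, on the minus strand. The description of one of them is an RPAC2-like transcript of the miscellaneous RNA class (RPAC2 is the POLR1D protein). Which locus they measure, and so whether the flat values are those of the POLR1D gene, was not tested.

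The 2 largest subunits of the enzyme, POLR1A and POLR1B, rose by similar amounts. POLR1A had log2 ratios of 1.11 in FBR, 1.00 in FTV, 0.73 in FNV and 1.15 in FKN (1.00 ± 0.19, SD, n = 4, limma adjusted p = 0.00118). POLR1B had 0.97 in FBR, 0.80 in FTV, 1.01 in FNV and 1.05 in FKN (0.95 ± 0.11, SD, n = 4, limma adjusted p = 0.000747). TAF1D, a subunit of the promoter-binding factor SL1, averaged 0.93 ± 0.27 on that scale (SD, n = 4, limma adjusted p = 0.00284), with a lowest value of 0.63 in FKN and a highest of 1.25 in FNV.

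RRN3, which recruits the polymerase to SL1 at the promoter, was dim. It was well above background in 9 of 16 stimulated and 7 of 16 unstimulated channels, and 2 animals met the filter. Its levels (log2 intensity) were 6.74 in FBR, 6.74 in FTV, 6.61 in FNV and 6.69 in FKN after stimulation, against 6.61, 6.60, 6.42 and 6.59 without it. The levels did not overlap, but the log2 ratio of 0.13 ± 0.07 (SD, n = 4) did not pass (limma adjusted p = 0.124). The scanner software's ratios, which use another background correction, gave a log2 ratio of 0.74, the value in the authors' deposited table was 0.73, and both passed the same test.

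**Figure D2:**
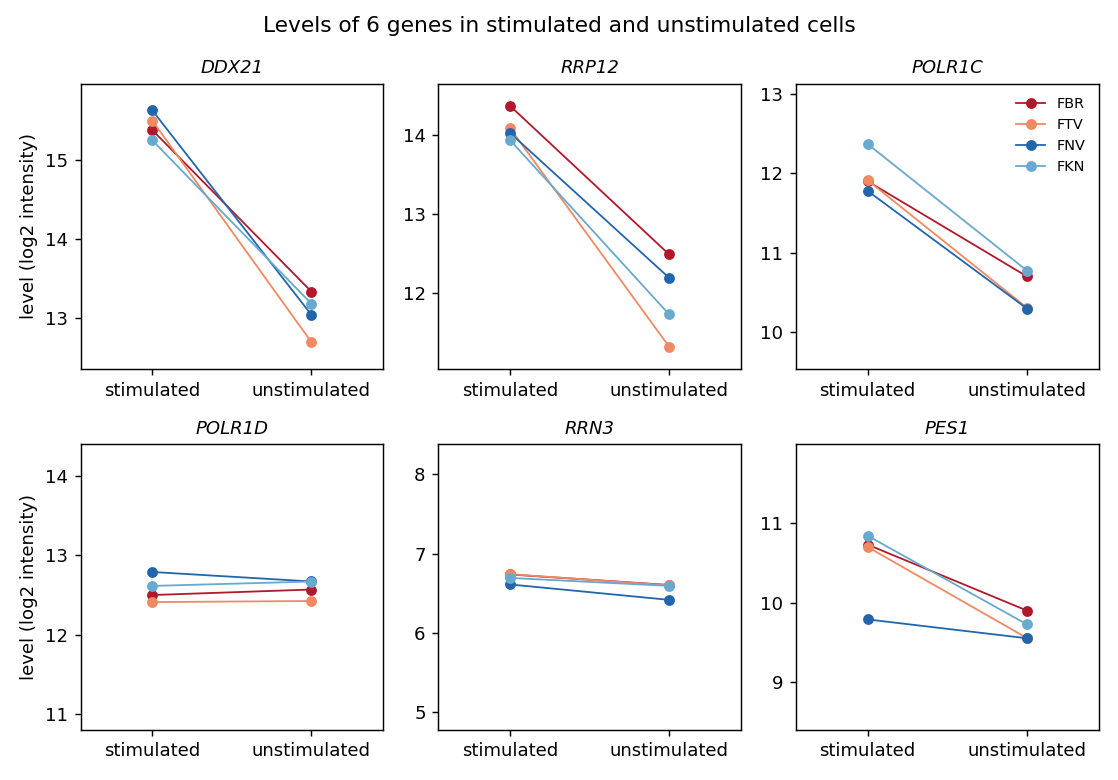
Levels (log2 intensity) of 6 genes in stimulated and unstimulated cells, with a line joining the samples of 1 animal; every panel spans the same number of log2 units. DDX21, RRP12 and POLR1C are higher in all stimulated samples, POLR1D lies flat, RRN3 is dim, and PES1 in stimulated FNV cells lies within the unstimulated range.

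All 4 measured snoRNP genes rose, with a median log2 ratio of 1.28. RRP9, a protein of the U3 snoRNP that starts small subunit processing, had log2 ratios of 1.66 in FBR, 1.70 in FTV, 1.17 in FNV and 1.57 in FKN (1.52 ± 0.24, SD, n = 4, limma adjusted p = 0.000755). DKC1, the pseudouridine synthase dyskerin of the H/ACA snoRNPs, had 1.23 in FBR, 1.28 in FTV, 1.83 in FNV and 1.22 in FKN (1.39 ± 0.29, SD, n = 4, limma adjusted p = 0.00118). FNV stands above the other 3 animals for DKC1 and below them for RRP9.

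NHP2, another core protein of the H/ACA particles, had log2 ratios of 0.67 in FBR, 1.61 in FTV, 1.13 in FNV and 1.27 in FKN (1.17 ± 0.39, SD, n = 4, limma adjusted p = 0.00389). FBL, the methyltransferase fibrillarin of the C/D snoRNPs, had the smallest rise of the step, at 0.70 in FBR, 0.88 in FTV, 0.45 in FNV and 0.83 in FKN (0.72 ± 0.20, SD, n = 4, limma adjusted p = 0.0031). FBL was bright in both conditions, at 15.87 to 16.44 (log2 intensity) in stimulated and 14.97 to 15.63 in unstimulated cells. Its call did not hold under median centring, where the log2 ratio was 0.81.

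All 10 measured small subunit processing genes rose, with a median log2 ratio of 1.20. RRP12, an export and maturation factor of the pre-40S particle, had levels (log2 intensity) of 14.36 in FBR, 14.08 in FTV, 14.02 in FNV and 13.93 in FKN after stimulation, against 12.49, 11.32, 12.19 and 11.73 without it. The stimulated levels lay close together, FTV was lowest among the unstimulated ones, and the log2 ratio was 1.99 in FBR, 2.87 in FTV, 1.93 in FNV and 2.40 in FKN (2.30 ± 0.43, SD, n = 4, limma adjusted p = 0.000862).

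WDR3, a component of the small subunit processome, had log2 ratios of 1.86 in FBR, 2.08 in FTV, 1.65 in FNV and 1.79 in FKN (1.85 ± 0.18, SD, n = 4, limma adjusted p = 0.000558). BYSL (bystin), which acts late in pre-40S maturation, had 1.56 in FBR, 2.32 in FTV, 1.59 in FNV and 1.499 in FKN (1.74 ± 0.38, SD, n = 4, limma adjusted p = 0.00121), and FTV stood apart from the other 3 animals. TSR1, a GTPase-like factor of the late pre-40S particle, had the smallest rise of the step and nearly the same value in each animal, 0.70 in FBR, 0.71 in FTV, 0.66 in FNV and 0.58 in FKN (0.66 ± 0.06, SD, n = 4, limma adjusted p = 0.00103). The other 6 genes had log2 ratios of 0.80 to 1.28. They were WDR43 and UTP15, which belong to the subcomplex that first binds the precursor, UTP20, a processome scaffold, PNO1 and the endonuclease NOB1, which act at the last cut of the small subunit RNA, and NAT10, which acetylates that RNA.

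All 10 measured large subunit processing genes also rose, and their median log2 ratio of 1.49 was the highest of the 5 steps. DDX21, a nucleolar RNA helicase that also acts with RNA polymerase I, had levels (log2 intensity) of 15.38 in FBR, 15.50 in FTV, 15.63 in FNV and 15.25 in FKN after stimulation, against 13.34, 12.70, 13.04 and 13.19 without it. The lowest stimulated level lay 1.91 above the highest unstimulated level, the widest gap among the 33 genes. The log2 ratio was 2.14 in FBR, 2.86 in FTV, 2.78 in FNV and 2.23 in FKN (2.50 ± 0.37, SD, n = 4, limma adjusted p = 0.000636).

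WDR12, which with PES1 and BOP1 forms the PeBoW complex of large subunit RNA processing, had log2 ratios of 1.78 in FBR, 2.59 in FTV, 1.29 in FNV and 2.07 in FKN (1.93 ± 0.54, SD, n = 4, limma adjusted p = 0.00213), the widest spread between animals among the tested probes of the 33 genes. These values are of the WDR12 probe on chromosome 6, and the one on chromosome 12 had a smaller SD of 0.32. Which locus each WDR12 probe measures, and so whether the wide spread is that of the WDR12 gene, was not tested. GNL3 (nucleostemin), a nucleolar GTPase, had 1.67 in FBR, 2.07 in FTV, 1.88 in FNV and 1.67 in FKN (1.82 ± 0.19, SD, n = 4, limma adjusted p = 0.000558). PES1 had the smallest rise of the step, at 0.81 in FBR, 1.05 in FTV, 0.14 in FNV and 1.05 in FKN (0.76 ± 0.43, SD, n = 4, limma adjusted p = 0.0194). The level of PES1 in stimulated FNV cells was 9.79 (log2 intensity), below the 9.90 of unstimulated FBR cells, while the other 3 stimulated samples lay at 10.70 to 10.84.

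The PES1 call did not hold without FKN, FBR or FTV, nor under median centring of the arrays. The other 6 genes of the step had log2 ratios of 1.09 to 1.58. They were NIP7 and NOP16, assembly factors of the pre-60S particle, KIAA0020, a Puf-domain protein also called PUM3, the assembly factors EBNA1BP2 and PPAN, and the RNA methyltransferase NOP2. KIAA0020 had the smallest spread between animals among the 33 genes, at 1.48 in FBR, 1.503 in FTV, 1.55 in FNV and 1.49 in FKN (SD 0.03). The file describes the NIP7 probe as reading a NIP7-like locus on chromosome X, so which copy it measures was not tested.

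The 3 measured nucleolar chaperones and regulators rose, with the lowest median of the 5 steps in the ratios used here, 0.61. That rank depended on the source of the ratios. In the authors' deposited table NPM3 had a log2 ratio of 0.88, MYBBP1A 1.36 and LYAR 1.39. The middle values of the RNA polymerase I genes there were 1.01 for POLR1A and 1.01 for TAF1D. LYAR, a nucleolar protein linked to ribosomal RNA synthesis, had log2 ratios of 1.49 in FBR, 1.20 in FTV, 1.27 in FNV and 1.503 in FKN (1.37 ± 0.16, SD, n = 4, limma adjusted p = 0.000617). Its levels overlapped between the conditions all the same, at 10.87 to 12.53 (log2 intensity) in stimulated and 9.71 to 11.31 in unstimulated cells, with FTV lowest and FNV highest in both.

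NPM3, a nucleolar protein of the nucleoplasmin family, had log2 ratios of 0.33 in FBR, 0.99 in FTV, 0.27 in FNV and 0.87 in FKN (0.61 ± 0.37, SD, n = 4, limma adjusted p = 0.0249). MYBBP1A, a nucleolar co-repressor, had 0.68 in FBR, 0.65 in FTV, 0.10 in FNV and 0.56 in FKN (0.50 ± 0.27, SD, n = 4, limma adjusted p = 0.0204), and its probe was well above background in 14 of 16 stimulated and 15 of 16 unstimulated channels. Neither call held without FKN, FBR or FTV, nor under median centring, and the NPM3 call did not hold on the arrays with stimulated RNA in Cy5 alone. The authors' deposited table gave MYBBP1A a log2 ratio of 1.36, the only called member whose value there differed by more than 1.5 times from the one here.

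Of the 14 genes without a probe under their own name, the probe description named NOP14, NOP58, BOP1 and NCL, a match made after the data were seen. The log2 ratio of NOP58, a core protein of the C/D snoRNPs, averaged 1.32 ± 0.13 (SD, n = 4, limma adjusted p = 0.000571). BOP1, the third PeBoW subunit, had 1.11 ± 0.20 (SD, n = 4, limma adjusted p = 0.001), and NCL, the abundant nucleolar protein nucleolin, had 1.25 ± 0.18 (SD, n = 4, limma adjusted p = 0.000755). NOP14, a small subunit processome factor, rose least, by 0.35 ± 0.14 (SD, n = 4, limma adjusted p = 0.0158). With these counted, 35 genes rose. The other genes, NOP56, NPM1, NOLC1, RRS1, POLR1E, GNL2, RRP1B, GAR1, WDR36 and HEATR1, were not analysed here.

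The 12 genes read by several probes had 30 probes that were well above background in at least 2 animals, and for 11 of the genes each of these probes passed upwards. A further PNO1 probe was well above background in 0 animals and was not tested. The 4 POLR1C probes, over 1983 bases of the genome, had mean log2 ratios of 1.40 to 1.49. The 4 DDX21 probes, over 6382 bases, had 1.97 to 2.50, the highest from the tested probe, whose sequence is not printed above. The WDR12 probe on chromosome 6, the brighter one, had 1.93 and the probe on chromosome 12 had 1.52. The MYBBP1A probes had 0.42, 0.50 and 0.69, a ratio of 1.64 between the extremes and the only gene in which probes above background differed by more than 1.5 times, apart from POLR1D, for which both values lay at 0.

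**Figure D3:**
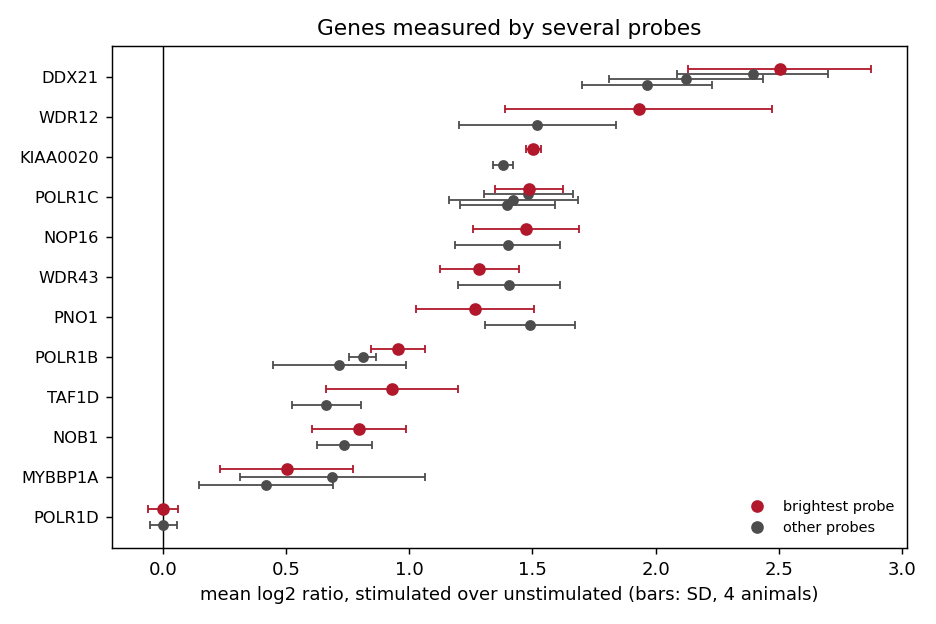
Mean log2 ratio of stimulated over unstimulated for each probe well above background in at least 2 animals, of the 12 genes with several such probes (red: brightest probe, the one tested; grey: the others; bars: SD over 4 animals). The probes of a gene lie close together, and both POLR1D probes lie at 0.

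All 4 animals had ratios above 0 for 32 of the 33 genes, and POLR1D was above 0 in FNV alone. The median log2 ratio over the 33 genes was 1.11 in FBR, 1.40 in FTV, 1.17 in FNV and 1.20 in FKN, and over all tested features it lay between -0.01 and 0.00 in each animal. FTV had the highest value for 23 of the 33 genes and FNV the lowest for 14. The SD of the log2 ratios over all tested features was likewise largest in FTV, at 0.65, and smallest in FNV, at 0.52. It was 0.55 in FBR and 0.61 in FKN. How often each animal was highest or lowest over all features was not counted. The median SD between animals was 0.20 over the 33 genes, against 0.16 over all tested features. On the self-self arrays, where both channels hold one RNA, the median size of the log2 ratio was 0.08 over these genes and 0.06 over all features.

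Beside these genes, 6 lists of related machinery were measured, all chosen with earlier results of these data known. Together 85 of their 110 tested genes rose and 3 fell, with a median log2 ratio of 0.68, beside the 19.1% and 21% of all features. Of the other RNA polymerase I machinery, 5 of 7 rose and 0 fell, led by CD3EAP, a subunit of the enzyme, at 1.33 and by TCOF1 (treacle), which acts in ribosomal DNA transcription, at 0.84. Of the other small subunit genes, 28 of 34 rose and 0 fell, led by PWP2 at 1.43 and NOC4L at 1.40, both part of small subunit assembly.

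Of the other large subunit genes, 26 of 32 rose and 1 fell. RPF2, which brings the 5S RNA into the pre-60S particle, had a log2 ratio of 2.03 and a rise in 4 of 4 animals, and the methyltransferase FTSJ3 rose by 1.27. GLTSCR2, a nucleolar protein also called NOP53, fell by 0.72 on the log2 scale and was lower in 4 of 4 animals. Of the other snoRNP core and assembly genes, 10 of 12 rose and 1 fell. NAF1, an H/ACA assembly factor, rose by 1.27 and TAF9, best known as a subunit of the general transcription factor TFIID, by 1.502, while PIH1D1, of the R2TP chaperone complex, fell by 0.76 on the log2 scale.

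The RNA exosome, which trims the 3′ ends of precursors, had 7 of 11 genes up and 0 down, led by its cap subunits EXOSC2 at 1.19 and EXOSC3 at 0.91. RNA polymerase III, which makes the 5S RNA and the transfer RNAs, had 9 of 14 up and 1 down. Its subunit POLR3E rose by 1.41 and GTF3A, which is needed for 5S transcription, by 0.86, while MAF1, a repressor of the enzyme, fell by 0.71 on the log2 scale. Under median centring of the arrays, 55 genes of these 6 lists rose and 1 fell.

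The structural proteins of the ribosome gave other values than the factors that build it. Of 39 tested cytosolic ribosomal protein genes 0 rose and 6 fell by limma, with a median log2 ratio of -0.08 and a range from -0.30 to 0.11, beside 19.1% of all features higher and 21% lower, so falls were no more frequent in this list than over all features. The largest falls were 0.30 for RPL13A (a fall in 4 of 4 animals) and 0.29 for RPL28 (likewise). Many ribosomal protein genes have near-identical processed copies in primate genomes, which probes may not separate. Of 55 mitochondrial ribosomal protein genes 31 rose and 1 fell, beside the same 19.1% and 21%, with a median of 0.32. MRPL15 rose by 1.51 and MRPL12 by 1.26, while MRPL10 fell by 1.04 on the log2 scale.

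**Figure D4:**
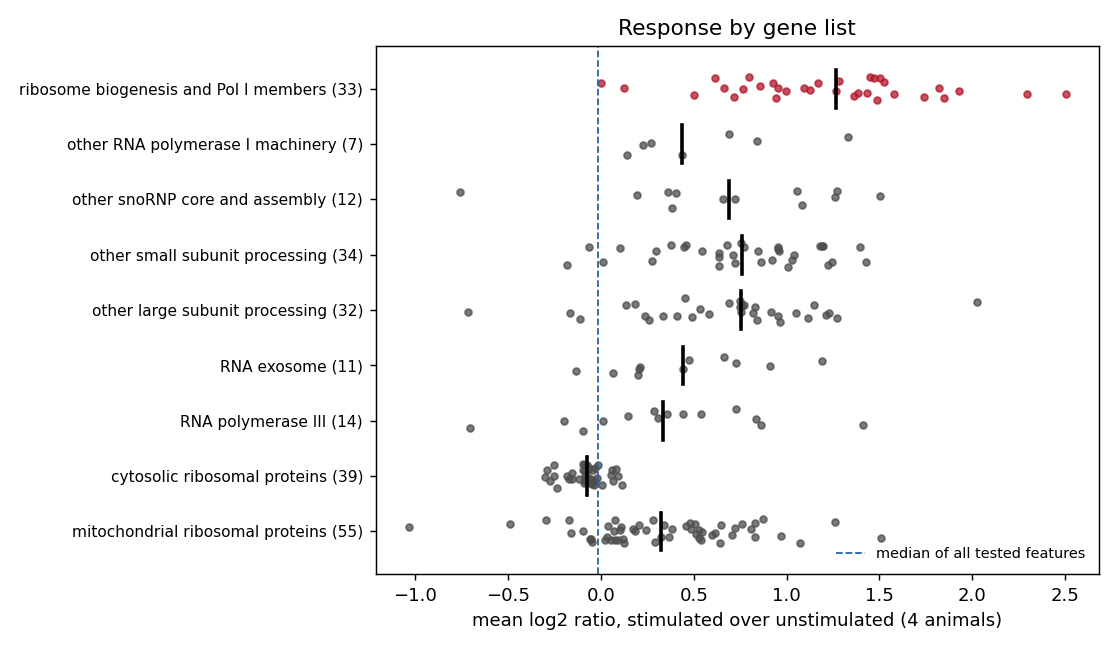
Mean log2 ratio of stimulated over unstimulated (4 animals) for each tested gene of the members and of 8 further lists (points: 1 gene each; black bars: list medians; dashed line: median of all tested features, -0.01). The cytosolic ribosomal proteins lie within -0.30 to 0.11, while the factor lists extend to the right.

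Markers of other blood cells moved with stimulation in the same samples. Of 10 monocyte genes 8 were measured, and 4 of them fell (CD14, S100A8, S100A9 and VCAN) and 0 rose. The mean of the log2 levels of the 8 genes in an animal was 8.16 to 10.15 (log2 intensity) in stimulated and 8.58 to 11.52 in unstimulated cells. The median log2 ratio of the monocyte list was -0.37 in FBR, -0.47 in FTV, -1.44 in FNV and -0.79 in FKN. Of 7 B cell genes 4 were measured, of which CD79B and MS4A1 fell and FCER2 rose. Of the NK cell genes FGFBP2 fell, with a log2 ratio of -0.57, and of the 2 red cell genes HBA2 fell, with -0.23. Between animals, KLRD1 stood apart in FTV, at 12.92 (log2 intensity) stimulated and 12.03 unstimulated, against 6.92 to 8.22 and 6.72 to 7.73 in the others. KLRF1 did so too, at 8.89 and 8.90 in FTV against 6.42 to 6.57 and 6.41 to 6.64. The NK cell genes NCAM1, NCR1 and FGFBP2 in FTV lay within the range of the other animals. FNV stood apart for markers of other cell types. In unstimulated cells LYZ was 16.48 in FNV against 10.46 to 12.63 in the others, and CD79B was 13.60 against 10.47 to 11.35. The red cell gene HBB was 8.92 in unstimulated FNV cells against 12.87 to 14.62. Other markers set FNV less apart, such as unstimulated S100A9, at 12.87 in FNV and 12.29 in FTV. The T cell markers moved both ways, with log2 ratios of 0.89 for CD3D, 0.51 for CD3G and 0.33 for CD2, which rose, -0.35 for CD247, which fell, and -0.20 for CD3E, which did not pass. The part of these markers in the responses above was not tested. Beside the monocyte medians given above, the median log2 ratio of the 33 genes was 1.11 in FBR, 1.40 in FTV, 1.17 in FNV and 1.20 in FKN.

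The second comparison set the animals with low CD4 status against those with normal CD4 status, 2 against 2. By limma 0 of the 33 genes differed in response, in stimulated level or in unstimulated level, and so did 0% of the 23081 features in each of the 3 comparisons. At an unadjusted p under 0.05 the counts over all features were 493, 458 and 382, with 0 of the 33 genes in each. The median difference in log2 response, low minus normal, was 0.09 over the 33 genes, with the low animals higher for 20 of them. It ran from -0.27 for DKC1, which had a mean log2 response of 1.25 in low and 1.52 in normal animals, to 0.50 for WDR12, with 2.18 in low and 1.68 in normal animals. The WDR12 values are those of its probe on chromosome 6. The probe on chromosome 12 had log2 ratios of 1.40 in FBR, 1.75 in FTV, 1.12 in FNV and 1.81 in FKN. There a normal animal was highest, and the CD4 difference of that probe was not tested.

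All 33 of the 95% intervals of that difference held 0, and their median half-width was 0.50. For DDX21 the difference was 0.00 with an interval from -0.88 to 0.87, and for KIAA0020 it was -0.03 with an interval from -0.35 to 0.29. Differences within such intervals were not detectable with 2 animals a group. The median differences in stimulated and unstimulated levels were both -0.08. Without FKN, which leaves 1 normal animal that is assumed to vary like the others, 5 of the 33 genes and 4198 of all features passed for the stimulated level. Without FBR the median difference in response was 0.29, and under median centring it was 0.35. FNV was the only animal scanned in the earlier batch, and without it the median difference was 0.04.

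**Figure D5:**
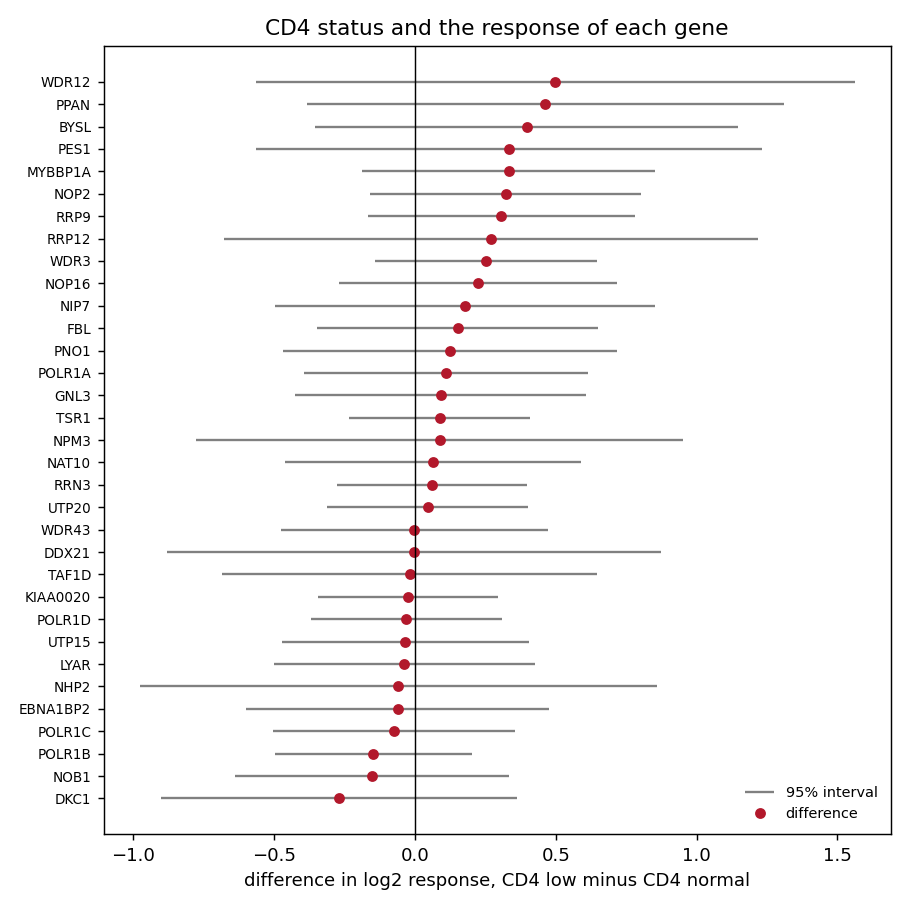
Difference in log2 response between animals with low and with normal CD4 status (low minus normal, 2 animals each) for each of the 33 genes, with its 95% interval from limma. The differences lie between -0.27 and 0.50, and all intervals hold 0.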

How the data were processed

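Per the labels' protocols, double-negative T cells were isolated with beads from blood mononuclear cells and rested overnight before culture. The authors deposited linear, unnormalised intensity of each spot and of its local background, with quality flags, and, per the file headers, the scanner software (Agilent Feature Extraction, version 10.7.3.1) also wrote a log10 ratio of red over green. A series-wide table deposited by the authors gives log2 ratios per animal, with a header that says normalised. The sources used here do not say how. Its columns correlated with the ratios here at 0.88 to 0.92, with medians of 0.00 in FBR, -0.01 in FTV, 0.07 in FNV and 0.00 in FKN, which settles the direction and leaves its centring and background method unknown. The submitters' processing notes list both limma and Agilent Feature Extraction, with no role stated.

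Here, in R 4.3.3 with limma 3.58.1 and version 1.17.8 of data.table, normexp background correction (offset 50) of mean signals was followed by loess within arrays, with control and outlier spots (at most 51 per array) at weight 0 and outliers then left out. Spots of a probe and the 2 dye-swapped arrays of an animal were averaged after turning the sign (n = 4). The filter kept probes flagged well above background for the same condition on both ratio arrays of at least 2 animals. The brightest probe per symbol and every unnamed probe were tested, 23081 features, with lmFit, eBayes and Benjamini-Hochberg adjustment. Levels are Aquantile-normalised means over 4 channels per animal in each condition. Figures were drawn with Python 3.11.15 and matplotlib 3.10.9.

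Gene names come from the newer of 2 annotation editions, and for 1 member, POLR1B, from the older one. On 1 FNV array the title was followed where a characteristic contradicts it. For each step the 3 largest responses and the smallest, and every member that did not pass, are given per animal, as log2 ratios, levels or both. For other lists the 2 largest rises and falls that passed are given. The members and lists were chosen with earlier results of these data known. In simulated data with the real spread, 200 of 23081 features were changed. A log2 change of 1 was called in 73.5% of features raised by that amount, and 0.0219% of unchanged features were called. In the real data 9246 features were called, which sets another adjusted cut-off, so 73.5% is not the share detected there. Nothing in the labels pairs animals across CD4 groups.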

Additional observations from a re-analysis of the deposited data

Results flagged for a closer look

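In 8 of the 99 sets of 4 animal values examined (response, stimulated level and unstimulated level of each gene), the gap between 1 animal and the nearest other was larger than 4 values usually show; chance alone gives such a gap in about 1 of 20 sets. FNV was the odd animal in 4 of them and FTV in 4. The NOP16 log2 response was 1.79 in FTV and 1.33 to 1.39 in the others, and that of BYSL was 2.32 in FTV and 1.499 to 1.59 in the others. The DKC1 log2 response was 1.83 in FNV and 1.22 to 1.28 in the others, while that of the dim gene RRN3 was 0.025 in FNV and 0.15 to 0.16 in the others. The stimulated level of PES1 (log2 intensity) was 9.79 in FNV and 10.70 to 10.84 in the others. Among unstimulated levels, GNL3 was 10.15 in FTV and 10.63 to 10.71 in the others, PNO1 was 10.53 in FTV and 11.03 to 11.13 in the others, and RRN3 was 6.42 in FNV and 6.59 to 6.61 in the others. FNV is also the animal of the earlier scan batch; the part of the scan batch in these values cannot be told apart from the animal.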

How the results depend on the processing

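With another background correction, centring, filter, dye orientation or ratio source, 27 to 32 members rose and 0 fell, apart from the self-self arrays without a replicate block, where 22 rose. Median centring gave 55 other-list genes that rose and 1 that fell, against 85 and 3, and a CD4 difference in response of 0.35, against 0.09; the cause was not tested. It called 4120 features, against 9246. Pairing by animal is part of the ratio design, since both RNAs of an array come from 1 animal. On the self-self arrays, the replicate block by animal called 31 members and a median of 1.15, and the fit without it 22 members and 1859 features. Leaving out each animal in turn gave 28 to 31 members that rose, 69 to 91 other-list genes that rose and 3 to 5 that fell, and 4967 to 11626 features. It gave a CD4 difference in response of -0.024 to 0.29, and 0 to 5 members called for the stimulated level. Of 136 member responses so recomputed, 127 kept their side of the threshold and 9 lost it, all NPM3, MYBBP1A or PES1; of 475 under the other settings, 459 kept it, 14 lost it and 2 gained it, both RRN3. In none of them did a called member change direction. Of the members, only RRN3 and MYBBP1A were not well above background in all 16 channels of each condition. NPM3 and PES1, which also lost calls, were. The part of signal over background in these changes was not tested.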

Other observations

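The tested probes lie on 15 chromosomes of rheMac2, at most 4 on one of them. The nearest neighbours are the probes of GNL3 and RRP9 on chromosome 2, 796 kb apart, with mean log2 ratios of 1.82 and 1.52. Next are those of DKC1 and NIP7 on chromosome X, 901 kb apart, with 1.39 and 1.58. The NIP7 probe is described as reading a NIP7-like locus, so that distance is to its position and may not be to the NIP7 gene. On the stimulated self-self array of FTV, where both channels hold one RNA, the log2 ratio of red over green was -0.77 for DDX21, -0.57 for NHP2 and -0.47 for NOP16, the largest sizes among the members on any self-self array; on the stimulated self-self arrays of the other animals DDX21 lay between -0.19 and 0.14.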
